A study of Mus musculus with 2 samples.

Results

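The potassium channel genes of hippocampal Cajal-Retzius (CR) cells were taken as every gene whose symbol starts with Kcn, without *Kcnq1ot1* and without symbols ending in os. This rule gave 96 of the 32285 genes in the count matrices. It includes the pore subunits of the voltage-gated, calcium- and sodium-activated, inward rectifier and leak channels, their auxiliary subunits, *Kcnrg* (a regulator named after these channels) and 2 antisense RNAs (*Kcnmb4os1* and *Kcnmb4os2*) whose symbols end in a digit. Of the 96, 32 had at least 100 UMIs (unique molecular identifiers, each marking 1 captured RNA molecule) in both libraries together, 47 had 1 to 99 and 17 had 0.

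CR cells were measured by single-cell RNA-sequencing of the mouse hippocampus at postnatal day 14, in 1 library per genotype. The control library came from *ΔNp73-Cre; Cic flox/+; tdT* mice (conditional heterozygous, 3 males and 1 female) and the knockout library from *ΔNp73-Cre; Cic flox/flox; tdT* littermates (2 males and 2 females). Both genotypes carried the ΔNp73-Cre driver and the tdT reporter, the control mice themselves carried 1 floxed copy of *Cic*, and DAPI-negative tdT-expressing cells of 4 mice were sorted and pooled into each library, so no difference between genotypes had a replicate check. According to the study's account of this line, Cre removed the CIC protein from a part of the CR cells only.

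Potassium channels let potassium ions leave the cell along their gradient, and so set the resting potential, repolarize the action potential and limit repetitive firing. Most pores are assembled from several alpha subunits, and auxiliary subunits (KChIP, Kv beta, BK beta) alter their surface level and gating. CR cells are early-born, reelin-secreting neurons of the cortical and hippocampal marginal zone, known for a high input resistance, a depolarized resting potential and a large hyperpolarization-activated current. CIC is a transcriptional repressor whose known targets include *Etv4* and *Etv5*.

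Cells were the barcodes with at least 2000 UMIs and at least 5 *Reln* UMIs, which gave 1003 control and 390 knockout cells with a median of 6224 (2012 to 31769) and 6664 (2769 to 33453) UMIs. No barcode was shared by the cells of the libraries (0). Besides *Reln*, which the selection fixed, the other 8 CR markers, among them *Trp73* and *Lhx5*, were found in 25% or more of the cells of each library. In each of the other 11 lists of cell type markers, at most 1 marker reached this share. The summed levels of these lists ran from 0.454 CPM (UMIs per 1000000 UMIs of the library) for erythrocytes to 103 for astrocytes in the control and from 0.723 for erythrocytes and GABAergic neurons to 88.9 for astrocytes in the knockout. The widespread markers were *Slc1a2* (35.5% and 32.8% of control and knockout cells), *Rgs5* (31.8% and 30.3%) and *Cspg4* (30.3% and 37.9%), and their part in the results was not tested. The deleted gene gave little check of the labels, since *Cic* stood at 58.9 CPM in the control and 51.3 in the knockout library, a ratio of 0.871 (95% interval 0.714 to 1.06). The CIC target *Etv4* was 36.0-fold (20.6 to 68.8) and *Etv5* 4.73-fold (3.69 to 6.08) higher in the library labelled knockout.

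The potassium channel genes took 1.72% of the control and 1.71% of the knockout UMIs, where UMIs of mitochondrial and ribosomal protein genes were left out of the total, as in every CPM here. In droplets of 20 to 100 UMIs, which hold free RNA and no cell, they took 0.265% and 0.257%. The share in the median cell was 1.71% and 1.64%. Intervals in brackets are exact 95% intervals that cover counting error only, and no p-value was computed because cells of 1 library are not replicates.

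A few genes gave most of these UMIs. *Kcnh7*, an ERG-type channel of the ether-a-go-go family, known for slow currents that limit repetitive firing, stood at 5472 CPM (5416 to 5529) in control cells and at 5417 (5331 to 5504) in knockout cells. It held 31.8% of the potassium channel UMIs in each library and the seventh largest count of any gene. *Kcnb2*, a delayed rectifier of the Kv2 family, stood at 3143 and 3189 CPM. *Kcnip4*, which encodes a KChIP (a calcium-binding auxiliary subunit of Kv4 channels), stood at 2831 and 2471 CPM. Together with *Kcnq5*, *Kcnc2* and *Kcnma1*, these genes made up 86.4% of the potassium channel UMIs in the control and 86.3% in the knockout.

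**Figure D1:**
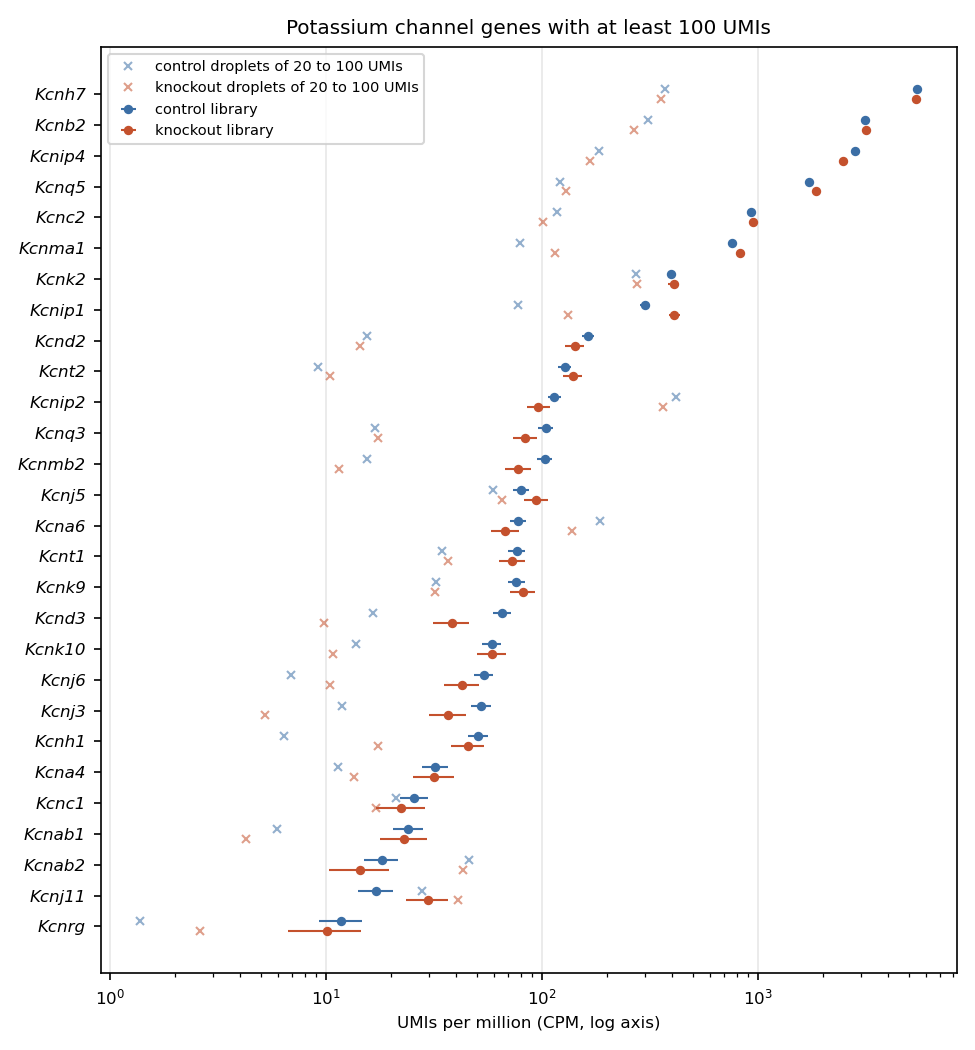
CPM (log axis) of 28 of the 32 potassium channel genes with at least 100 UMIs in control (blue) and knockout (red) cells, with exact 95% counting intervals. Crosses give the same genes in droplets of 20 to 100 UMIs. *Kcnh7* leads both libraries at 5472 and 5417 CPM, and *Kcnip2* and *Kcna6* lie below their level in the droplets.

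The genes with many UMIs were long. The Spearman correlation of control CPM with the genomic span was 0.68 and with the exon length 0.28 over these 32 genes, which share libraries and depth, and 10 of the 12 highest spanned at least 100 kb. Whether intronic reads were counted is not given in the sources used here, and a longer gene can gather more of them. Each UMI marks 1 molecule of a 3′ library, so its count need not grow with exon length. Levels per kilobase of exon, here and below, are therefore descriptions and do not correct a ranking for length. Per kilobase of exon, the control level was highest for *Kcnip4* (781 CPM per kb), followed by *Kcnh7* (359), *Kcnq5* (225), *Kcnb2* (207) and *Kcnc2* (130). Per 100 kb of span, *Kcnh7* led (1115 CPM), followed by *Kcnb2* (720), *Kcnc2* (473.4), *Kcnip2* (473.4) and *Kcna4* (410). *Kcnh7*, *Kcnb2* and *Kcnc2* were thus near the top by either length, and *Kcnip4* led by exon length and was the tenth by span. *Kcnh7* (chr2:62693414-63184287, minus strand, GRCm38) overlaps *Gca*, and *Kcnip4* (chr5:48389502-49524907, minus strand) overlaps *5730480H06Rik*. Both partners lie on the other strand in the last 5 kb, and the strand that was counted is not given either.

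The delayed rectifiers besides *Kcnb2* were led by *Kcnc2*, a Kv3 channel of fast repolarization, at 927 and 953 CPM. Its relative *Kcnc1* stood at 25.8 and 22.4 CPM, and *Kcnc4* had 0 UMIs. The Kv1 family, low-threshold channels of axons, was low, with *Kcna6* at 78.0 and 68.0 CPM, *Kcna4* at 32.3 and 31.8 and *Kcna2* at 4.85 and 15.5. *Kcna1* had 0 UMIs in both libraries, which allows up to 0.454 CPM in the control and 1.08 in the knockout. The Kv beta subunits that dock on Kv1 pores stood at 24.1 and 23.1 CPM (*Kcnab1*) and at 18.2 and 14.5 (*Kcnab2*). Beside *Kcnh7*, the ether-a-go-go family had *Kcnh1* at 50.9 and 45.6 CPM. The modifier subunits that form no channel of their own (*Kcnf*, *Kcng*, *Kcns* and *Kcnv*) reached 6.21 and 9.04 CPM summed over 10 genes, and the 5 KCNE subunits 11 and 2 UMIs.

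Genes of the A-type current, carried by Kv4 pores with KChIP and DPP partners, had more transcript of an auxiliary subunit than of the pores. The pores *Kcnd2*, *Kcnd3* and *Kcnd1* stood at 164 and 142, at 65.6 and 38.3 and at 10.5 and 10.8 CPM. The KChIP genes summed to 3246 and 2979 CPM, of which *Kcnip4* was most, while *Kcnip1* stood at 300 and 412, *Kcnip2* at 115 and 96.5, and *Kcnip3* at 1 and 0 UMIs. Per kilobase of exon, the control levels were 781 CPM for *Kcnip4* and 48.4 for *Kcnip1*, against 31.8 for *Kcnd2* and 6.84 for *Kcnd3*. Both DPP partners of these pores were present, *Dpp10* at 175 and 227 CPM and *Dpp6* at 118 and 99.8 CPM.

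Members of the Kv7 family carry the M-current, a slow current that is shut by muscarinic receptors. Here *Kcnq5* stood at 1730 and 1866 CPM, and *Kcnq3* at 104 and 83.9. Per kilobase of exon the control level was 225 CPM for *Kcnq5* and 7.1 for *Kcnq3*.

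Among channels opened by calcium or sodium, *Kcnma1* (the BK pore) stood at 763 and 824 CPM, and the sodium-activated *Kcnt2* and *Kcnt1* at 128 and 139 and at 76.6 and 73.0 CPM. The BK beta subunits were nearly all *Kcnmb2* (103 and 78.1 CPM), a subunit that inactivates the channel, while *Kcnmb4*, the common neuronal form, had 18 and 2 UMIs. The BK gamma subunits (*Lrrc26*, *Lrrc38*, *Lrrc52* and *Lrrc55*) had 0 to 2 UMIs each. The SK channels of the afterhyperpolarization reached 12.3 and 17.4 CPM over 4 genes. *Kcnn2* led them with 62 and 33 UMIs, *Kcnn3* had 10 and 7 and *Kcnn1* had 8 and 8.

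Leak channels were led by *Kcnk2* (TREK-1), which stood at 399 and 410 CPM in cells and at 272 and 275 CPM in droplets. The CPM of cells was thus 1.47-fold (1.34 to 1.61) and 1.49-fold (1.36 to 1.63) that of the droplets. *Kcnk2* also overlaps *2900042K21Rik* on the same strand. The acid-sensitive *Kcnk9* (TASK-3) stood at 76.5 and 82.1 CPM and *Kcnk10* (TREK-2) at 58.6 and 58.9. *Kcnk1*, a leak channel common in glia and neurons, had 4 and 0 UMIs.

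Of the inward rectifiers, the G protein-gated *Kcnj5*, *Kcnj6*, *Kcnj3* and *Kcnj9* stood at 80.4 and 94.4, at 53.9 and 42.7, at 52.6 and 36.9 and at 7.42 and 6.51 CPM. The ATP-sensitive *Kcnj11* stood at 17.1 and 29.7 CPM. *Kcnj10*, the astrocytic inward rectifier, had 0 UMIs in the cells of both libraries and 9 and 14 UMIs in the droplets. The mural cell gene *Kcnj8* had 0 UMIs in cells and droplets of both libraries, and the astrocytic *Kcnj16* had 2 and 0 in cells. *Kcnj13*, a gene of choroid plexus epithelium, had 45 and 17 UMIs in cells and 0 in droplets. It overlaps *Gigyf2* on the other strand in its last 5 kb, and the strand that was counted is not given. *Kcne2*, another choroid plexus gene, had 2 and 0 UMIs.

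Some members had less CPM in cells than in the free RNA around them. The control ratio of cells to droplets was 0.28 (0.25 to 0.30) for *Kcnip2*, 0.42 (0.37 to 0.48) for *Kcna6*, 0.39 (0.30 to 0.52) for *Kcnab2* and 0.61 (0.44 to 0.85) for *Kcnj11*. In the knockout it was 0.26, 0.49, 0.33 and 0.73, below 1 in each. In CPM these genes did not exceed the free RNA. A droplet held a median of 89 UMIs in the control and 44 in the knockout, against 6224 and 6664 in a cell. The comparison of CPM therefore does not tell how many UMIs of a cell were free RNA and how many its own. At the other end, *Kcnh7* was 14.7-fold (13.7 to 15.8) and *Kcnip4* 15.3-fold (13.9 to 17.0) above the control droplets.

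The genes also differed in how evenly cells carried them, once each cell was thinned to 2000 UMIs. *Kcnh7* was found in 98.9% and 99.2% of thinned cells and *Kcnb2* in 97.2% and 97.7%, while *Kcnip4* was found in 83.2% and 82.1%. The mean per thinned cell was 5.87 and 6.14 UMIs for *Kcnb2* and 5.21 and 4.47 for *Kcnip4*. Before thinning the shares were 99.5% and 99.2% for *Kcnh7*, 99.1% and 99.2% for *Kcnb2* and 91.2% and 91.3% for *Kcnip4*. The Fano factor, the variance over the mean, is 1 for pure counting error. It was 4.53 and 4.19 for *Kcnip4*, 3.09 and 3.22 for *Kcnh7*, 2.40 and 2.13 for *Kcnq5* and 2.05 and 1.91 for *Kcnb2*. *Kcnip4* thus had the highest Fano factor in both libraries, a measure that can grow with the mean count. Among genes with a mean under 1 UMI per thinned cell, *Kcnd2* had 2.11 and 2.08 and *Kcnip1* 1.91 and 1.77, against 1.18 and 1.23 for *Kcnk2*.

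The comparison of genotypes asked whether loss of CIC went with other levels of these channels. A gene was counted when its CPM differed by at least 1.5-fold, among genes with at least 100 UMIs. Over all 9615 such genes 4.33% passed, 2.69% higher and 1.63% lower in the knockout. Of the 32 potassium channel genes 2 passed (6.25%), which is near the share of all genes, and 25 had a ratio between 0.8 and 1.25. The median log2 ratio was -0.06 for the potassium channel genes and 0.00 for all genes, and 11 members were above a ratio of 1 and 21 below. The 6 genes with most UMIs had ratios of 0.99 (0.97 to 1.01) for *Kcnh7*, 1.01 (0.99 to 1.04) for *Kcnb2*, 0.87 (0.85 to 0.90) for *Kcnip4*, 1.08 (1.04 to 1.11) for *Kcnq5*, 1.03 (0.98 to 1.08) for *Kcnc2* and 1.08 (1.03 to 1.14) for *Kcnma1*. All lay within the range from 0.8 to 1.25.

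**Figure D2:**
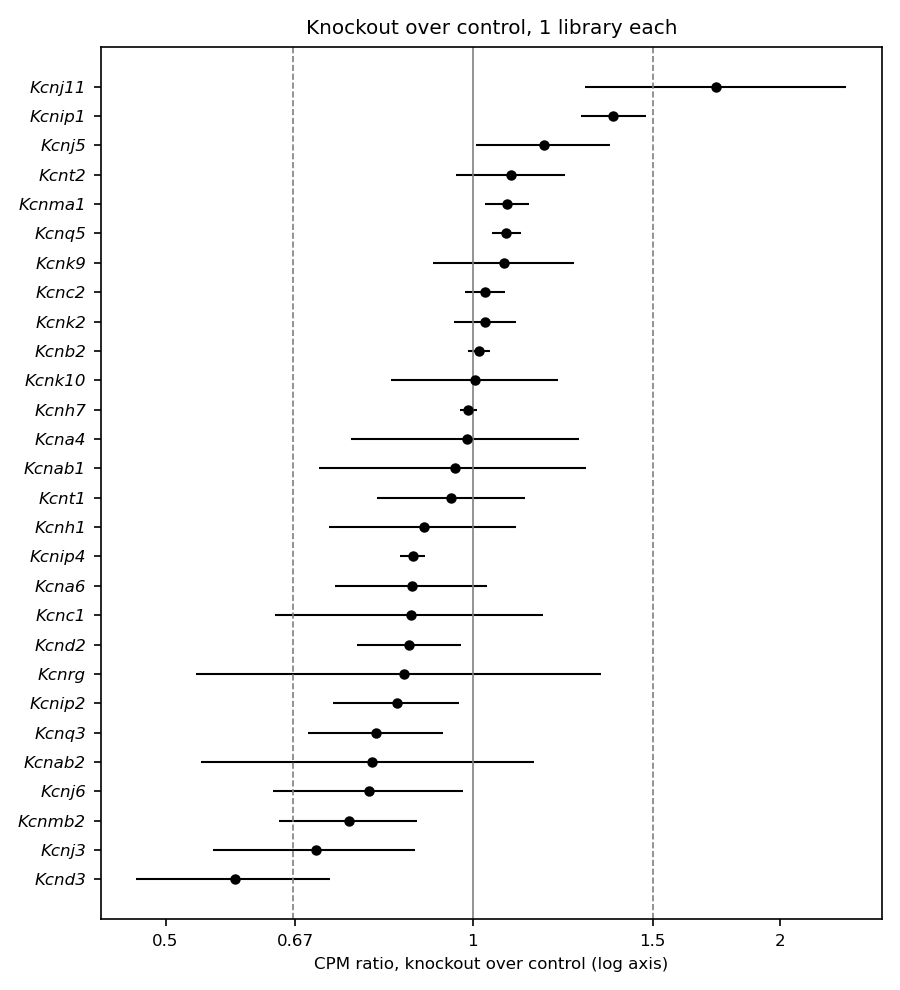
CPM ratio of the knockout over the control library (log axis) for 28 of the 32 genes, with exact 95% counting intervals and 1 library per genotype. Dashed lines mark 1.5-fold in either direction. *Kcnj11* lies above at 1.73 and *Kcnd3* below at 0.58, and *Kcnip1* has a narrow interval from 1.28 to 1.48.

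*Kcnd3*, a Kv4 pore of the A-type current (chr3:105452330-105674002, plus strand, GRCm38), had 433 UMIs in the control and 106 in the knockout, or 65.6 (59.6 to 72.1) and 38.3 (31.4 to 46.4) CPM. The ratio of knockout to control was 0.58 (0.47 to 0.72). It was 0.59 (0.44 to 0.78) in male cells and 0.64 (0.44 to 0.94) in female cells, read from *Xist* and Y-linked genes in 702 and 194 and in 227 and 176 cells. It was lower in the knockout in all 6 groups of cells positive or negative for *Cck*, *Grik1* or *Chst8*/*Alkal2*, from 0.35 to 0.73. These groups divide the same cells repeatedly and are not separate checks. The interval of *Grik1*-positive cells (0.46 to 1.11) held 1. A single cell held 5.66% of the knockout UMIs. *Kcnd2*, which encodes the related pore, was at 0.87 (0.77 to 0.97), and the Kv4 family as a whole at 0.80 (0.72 to 0.88). *Kcnd3* overlaps *Gm43847* on the same strand.

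*Kcnj11*, the pore of the ATP-sensitive channel (chr7:46093953-46100764, minus strand), had 113 UMIs in the control and 82 in the knockout, or 17.1 (14.1 to 20.6) and 29.7 (23.6 to 36.8) CPM. The ratio was 1.73 (1.29 to 2.32), and 1.88 in male and 1.93 in female cells. Both levels lay below those of the droplets (28.0 and 40.8 CPM), where the gene also had more CPM in the knockout. With the UMIs of a droplet of median size subtracted from each cell, the ratio was 1.74. Such a droplet held 89 UMIs in the control and 44 in the knockout, so the subtraction could move the ratio little. In *Chst8*/*Alkal2*-positive cells the ratio was 0.54 (0.20 to 1.26), from 28 and 7 UMIs. Its partner *Abcc8*, the sulfonylurea receptor, stood at 45.3 and 55.3 CPM, a ratio of 1.22 (1.00 to 1.49), and *Abcc9* had 10 and 3 UMIs.

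*Kcnip1*, the KChIP with the widest difference (chr11:33629339-33993152, minus strand), rested on more UMIs, 1980 in the control and 1139 in the knockout. Its level was 300 (287 to 313) and 412 (388 to 436) CPM, a ratio of 1.37 (1.28 to 1.48) that did not reach 1.5-fold. The thinned share of cells with a UMI was 31.3% (28.4 to 34.3) and 41.5% (36.6 to 46.6). Before thinning it was 52.2% and 65.1%. The ratio was 1.38 (1.25 to 1.52) in male and 1.51 (1.31 to 1.73) in female cells. It was above 1 in all 6 marker groups, from 1.28 to 2.45, with no interval holding 1. The groups again divide the same cells and are not separate checks. Droplets had 78.0 and 133 CPM, so that the free RNA of the knockout also held more of it. The ratio was again 1.37 with a median droplet subtracted from each cell, a step that could move it little. *Kcnip1* overlaps *4930469K13Rik* on the same strand, and *Kcnmb1*, *Gm12119* and *Gm12120* on the other. *Kcnmb1* had 0 and 1 UMIs, and the UMIs of the other overlapping genes are not given here.

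*Kcnj3*, the G protein-gated GIRK1, stood at 52.6 (47.2 to 58.4) and 36.9 (30.1 to 44.8) CPM, a ratio of 0.70 (0.56 to 0.88). *Kcnmb2* stood at 103 (95.7 to 111) and 78.1 (68.0 to 89.2) CPM, a ratio of 0.76 (0.65 to 0.88). In male cells their ratios were 0.76 (0.56 to 1.03) and 0.83 (0.68 to 1.02), and in female cells 0.61 (0.42 to 0.88) and 0.63 (0.48 to 0.83). Both were thus lower in the knockout in each sex, though in male cells both intervals held 1. Over the 6 marker groups the ratio of *Kcnj3* lay between 0.45 and 0.86. That of *Kcnmb2* was above 1 in *Cck*-positive cells, at 1.34 (1.02 to 1.77), and between 0.58 and 0.93 in the other groups. Cells without any of 44 markers of other cell types that are rare here (799 control and 293 knockout cells) gave 0.52 (0.40 to 0.67) for *Kcnd3*, 1.80 (1.30 to 2.49) for *Kcnj11*, 0.72 (0.55 to 0.93) for *Kcnj3*, 0.83 (0.69 to 0.99) for *Kcnmb2* and 1.38 (1.27 to 1.5) for *Kcnip1*. *Kcnq5* was at 1.08 (1.04 to 1.11) in all cells, at 1.01 (0.96 to 1.05) in male and at 1.16 (1.10 to 1.22) in female cells, and the difference between the sexes was not tested.

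Under the minimum of 100 UMIs, *Kcna2*, a Kv1 pore of axons (chr3:107101146-107115005, plus strand), had 32 control and 43 knockout UMIs, or 4.85 and 15.5 CPM, a ratio of 3.21 (1.98 to 5.24). It was 2.65 (1.42 to 4.91) in male and 4.92 (1.80 to 16.7) in female cells. The droplets held 7 of its UMIs in the control and 22 in the knockout, out of unequal totals of 2178793 and 3038825 UMIs outside mitochondrial and ribosomal protein genes. *Kcnh2* (27 and 23 UMIs, ratio 2.03) and *Kcnh6* (54 and 12 UMIs, ratio 0.53) were the others with at least 50 UMIs past 1.5-fold. These were chosen after their values were seen.

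Cells of the knockout library were also separated by UMIs of the CIC targets *Etv4* and *Etv5*, a split added after the data were seen. At least 1 such UMI was found in 162 of the 390 knockout cells and in 87 of the 1003 control cells. Cells with a UMI were deeper, with medians of 7266 and 6210 UMIs in the knockout and 7036 and 6144 in the control, and depth can put a cell on either side. The part of depth was not tested. *Kcnip1* stood at 526 CPM (486 to 568) in knockout cells with an *Etv4* or *Etv5* UMI and at 321 (293 to 350) in those without. The latter was 1.07 times (0.97 to 1.18) the level of the whole control library, against 1.75 times (1.60 to 1.92) for the former. Within the knockout the ratio was 1.64 (1.46 to 1.85). In the control, the same split gave 371 and 292 CPM, a ratio of 1.27 (1.11 to 1.45), so that some of the contrast was also present where *Etv4* was rare.

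Other members separated along the same split. *Kcnj3* stood at 24.4 and 46.8 CPM in knockout cells with and without such a UMI, a ratio of 0.52 (0.33 to 0.81), and at 68.9 and 50.7 in the control, 1.36 (0.97 to 1.86). *Kcnh1*, an ether-a-go-go channel, had ratios of 0.41 (0.26 to 0.62) in the knockout and 1.03 (0.71 to 1.47) in the control. *Kcnip4* had 0.79 (0.75 to 0.83) and 1.27 (1.21 to 1.32). For these genes the split went one way in the knockout and not in the control, and the difference was not tested. For *Kcnmb2* the ratios were 0.47 (0.34 to 0.64) and 0.38 (0.25 to 0.56), so that this gene was lower beside an *Etv4* or *Etv5* UMI in both genotypes. *Kcnd3* was at 29.3 and 45.5 CPM in the knockout, a ratio of 0.64 (0.42 to 0.98), and knockout cells without such a UMI were still at 0.69 (0.53 to 0.90) of the control library. *Kcnk10* was at 1.75 (1.27 to 2.42) in the knockout and 1.17 (0.84 to 1.60) in the control, and *Kcnj6* at 0.80 (0.54 to 1.17) and 1.84 (1.37 to 2.43). In the knockout, *Kcna2* had 31 UMIs in the 162 cells and 12 in the other 228, a ratio of 3.23 (1.61 to 6.91). In the control it had 7 UMIs in cells with such a UMI and 25 in the others, a ratio of 2.49 (0.91 to 5.92) in the same direction. Against the whole control library, 6 of 31 members passed 1.5-fold in knockout cells with such a UMI (*Kcnj11* and *Kcnip1* higher, *Kcnh1*, *Kcnj3*, *Kcnmb2* and *Kcnd3* lower), where 9.06% of all genes did. In knockout cells without one, 1 of 31 passed (*Kcnj11*), where 5.19% of all genes did. Control cells with such a UMI stood at 28.5 CPM for *Kcnj11* and 41.9 for *Kcnmb2*, beside 28.5 and 48.0 in knockout cells with one. Among cells with such a UMI, these genes thus did not differ in those directions, though the control level of *Kcnj11* there rested on 19 UMIs. In cells without one, *Kcnj11* stood at 15.8 CPM (12.8 to 19.4) in the control and at 30.6 (22.5 to 40.6) in the knockout. *Kcnmb2* stood at 110 and 102 CPM in those cells. Among cells with an *Etv4* or *Etv5* UMI, *Kcnip1* was still higher in the knockout, and *Kcnh1*, *Kcnj3* and *Kcnd3* were still lower.

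**Figure D3:**
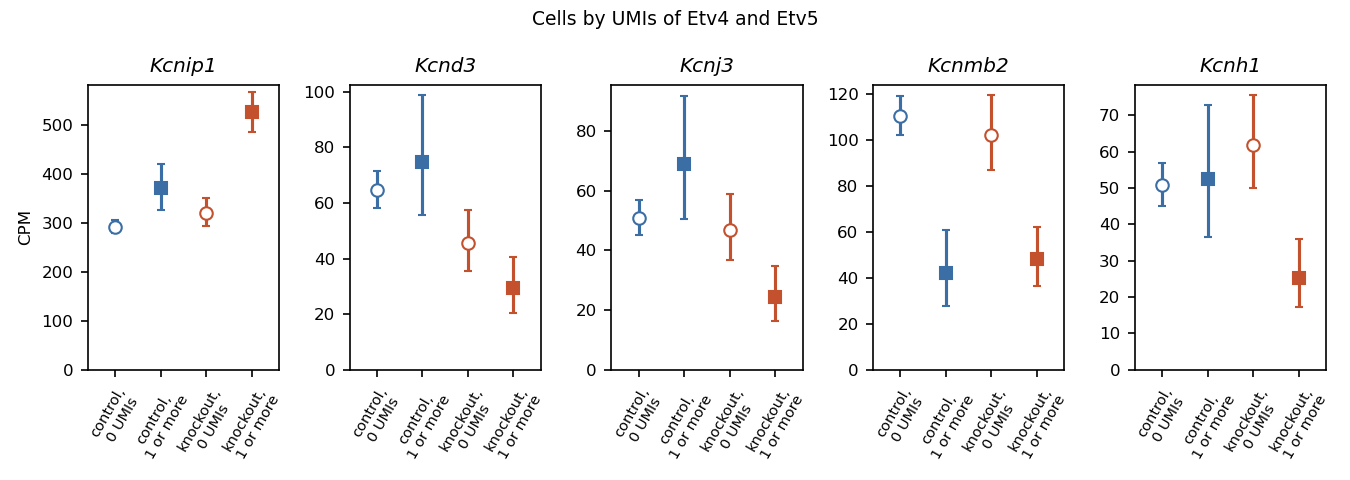
CPM of 5 potassium channel genes in control (blue) and knockout (red) cells with 0 UMIs of *Etv4* and *Etv5* (open circles) and with 1 or more (filled squares), with exact 95% counting intervals. *Kcnip1* is highest in knockout cells with such a UMI, at 526 CPM, and *Kcnmb2* is lower beside such a UMI in both libraries, at 41.9 and 48.0 CPM.

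The promoters of these genes were searched for the octamer bound by CIC (TGAATGAA, TGAATGGA, TCAATGAA and TCAATGGA, on both strands) in RefSeq windows from 250 bases before to 50 after each start on GRCm38.p6. A window was at hand for 70 members, of which 4 (5.71%) held the octamer, against 4.45% of 27025 genes. The members were *Kcnip4*, *Kcnip1*, *Kcnj10* and *Kcns3*. A match is a description of letters and not of a bound site. In *Kcnip4* it begins 79 bases before 1 of its starts, one inside the annotated gene, in the window chr5:49285660-49285909 (minus strand). In *Kcnip1* it begins at base 2 after 1 of its starts, also one inside the annotated gene. This match is shown with 30 bases at chr11:33843667-33843696 (minus strand). The counts do not tell which start was used. *Kcnd3*, the member with the lowest ratio among those with at least 100 UMIs, is shown from chr3:105451640-105451889 (plus strand) as a window without these letters. The sequences run 5′ to 3′, and capitals mark the octamer.
Kcnip4: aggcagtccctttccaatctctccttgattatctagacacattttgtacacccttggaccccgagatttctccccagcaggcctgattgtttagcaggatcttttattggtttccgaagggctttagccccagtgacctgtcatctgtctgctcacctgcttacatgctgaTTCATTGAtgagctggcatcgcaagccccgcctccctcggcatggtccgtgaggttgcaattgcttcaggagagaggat
Kcnip1: ccctggcgctgTTCATTCAtgattggtact
Kcnd3: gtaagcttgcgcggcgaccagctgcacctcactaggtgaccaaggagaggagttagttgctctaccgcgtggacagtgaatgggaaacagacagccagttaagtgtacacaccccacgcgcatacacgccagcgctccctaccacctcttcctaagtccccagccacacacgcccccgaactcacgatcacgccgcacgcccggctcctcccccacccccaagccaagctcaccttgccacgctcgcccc

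The splits by marker genes asked whether groups of CR cells carry different channels. Each split was made within each library, a gene was counted when it differed by at least 1.5-fold the same way in both, and a cell was positive with at least 1 UMI. *Cck*, a neuropeptide gene, was found in 324 of 1003 control and 110 of 390 knockout cells, with similar depth on both sides (medians of 6397 and 6148 UMIs in the control and 6788.5 and 6650 in the knockout). The share of all potassium channel genes was alike, with 1.70% and 1.73% of control UMIs and 1.67% and 1.72% of knockout UMIs. Of 32 members 2 passed (6.25%), against 2.62% of all 9614 genes tested.

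*Kcnip1* was higher in *Cck*-positive cells, at 445 against 223 CPM in the control, a ratio of 1.99 (1.82 to 2.18), and at 602 against 335 in the knockout, 1.80 (1.60 to 2.02). *Kcnd2* was lower, at 101 against 198 CPM in the control, a ratio of 0.51 (0.44 to 0.59), and at 54.0 against 178 in the knockout, 0.30 (0.22 to 0.42). This KChIP and this pore of the A-type current thus lay on opposite sides of the split in both libraries. *Kcnd3* lay on the side of *Kcnd2*, with ratios of 0.74 (0.59 to 0.91) and 0.41 (0.22 to 0.71), and *Kcnip2* on that of *Kcnip1*, with 1.34 (1.15 to 1.55) and 1.46 (1.13 to 1.88). *Kcnip4*, which held most of the KChIP UMIs, was on neither side, with 1.03 (1.00 to 1.06) and 0.98 (0.93 to 1.04).

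By the interval bound nearer to 1, *Kcnk10* was the member next highest in *Cck*-positive cells. Its control and knockout ratios were 1.46 (1.19 to 1.80) and 2.91 (2.11 to 4.01). *Kcnj3* was at 1.87 (1.51 to 2.33) in the control and at 1.24 (0.80 to 1.90) in the knockout. *Kcnh7* was slightly lower in *Cck*-positive cells, with 0.86 (0.84 to 0.88) and 0.88 (0.85 to 0.91), from 4961 and 5743 CPM in the control. *Kcnmb2* went opposite ways, at 73.9 against 119 CPM in the control, a ratio of 0.62 (0.52 to 0.74), and at 99.3 against 69.5 in the knockout, 1.43 (1.07 to 1.90).

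**Figure D4:**
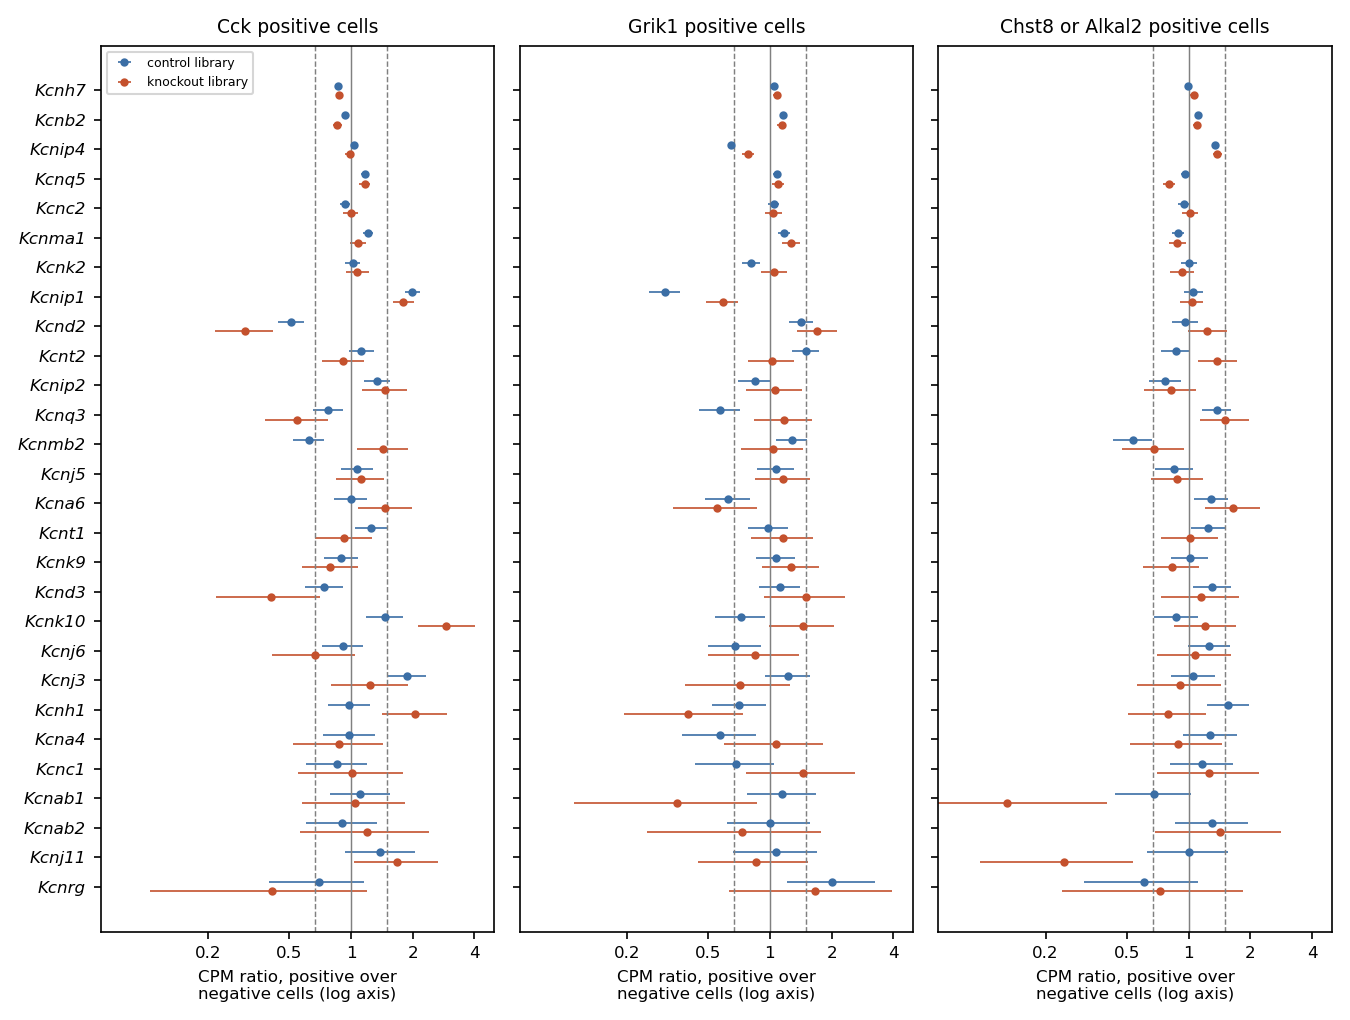
CPM ratio of marker-positive over marker-negative cells (log axis) for 28 of the 32 genes in the control (blue) and knockout (red) library, split by *Cck*, *Grik1* and *Chst8* or *Alkal2*, with exact 95% counting intervals that are cut at the axis limits. Dashed lines mark 1.5-fold. *Kcnip1* lies at 1.99 and 1.80 for *Cck* and at 0.31 and 0.59 for *Grik1*.

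*Grik1*, a kainate receptor gene, was found in 194 control and 70 knockout cells (medians of 6521 and 6145 UMIs in positive and negative control cells, and 6917 and 6554 in the knockout). *Kcnip1* was lower in *Grik1*-positive cells, at 107 against 351 CPM in the control, a ratio of 0.31 (0.26 to 0.36), and at 263 against 448 in the knockout, 0.59 (0.49 to 0.70). It thus lay on the other side of this split than of that by *Cck*. *Kcna6* was also lower, at 53.0 against 84.6 CPM, 0.63 (0.48 to 0.80), and at 41.0 against 74.5, 0.55 (0.34 to 0.86). *Kcnrg* was higher, with ratios of 2.01 (1.21 to 3.26) and 1.66 (0.63 to 3.94), but from 27 and 8 UMIs in positive cells, and it overlaps *Dleu2* on the other strand. These 3 of 32 members (9.38%) stand against 2.45% of all genes.

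Not past 1.5-fold in both libraries, *Kcnd2* was at 1.43 (1.24 to 1.63) and 1.70 (1.35 to 2.12) in *Grik1*-positive over negative cells, and *Kcnip4* at 0.65 (0.62 to 0.68) and 0.78 (0.73 to 0.84). *Kcnd2* therefore lay opposite to *Kcnip1* and *Kcnip4* here, while *Kcnip2* was at 0.85 (0.70 to 1.02) and 1.05 (0.77 to 1.43). *Kcnma1* was at 1.18 (1.10 to 1.25) and 1.27 (1.15 to 1.40).

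Cells positive for *Chst8* (a sulfotransferase of hormone glycans) or *Alkal2* (a ligand of ALK receptors) numbered 232 in the control and 91 in the knockout. They were deeper than the others, with medians of 6720.5 and 6059 UMIs in the control and 7869 and 6361 in the knockout. None of the 32 members (0) passed 1.5-fold in both libraries, where 2.67% of all genes did. By the interval bound nearer to 1, the highest were *Kcnip4* with 1.35 (1.31 to 1.39) and 1.38 (1.31 to 1.45), *Kcnq3* with 1.37 (1.16 to 1.61) and 1.5 (1.14 to 1.98), and *Kcna6* with 1.28 (1.06 to 1.56) and 1.64 (1.21 to 2.22). The lowest were *Kcnmb2* with 0.53 (0.43 to 0.66) and 0.68 (0.47 to 0.95), *Kcnma1* with 0.89 (0.83 to 0.95) and 0.88 (0.80 to 0.97), and *Kcnq5* with 0.96 (0.92 to 1.00) and 0.80 (0.75 to 0.85). The BK pore and its beta subunit were both lower on this side, while *Kcnip4* differed alike in both libraries. Its intervals cover counting error only and not the spread between cells.

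A further group of cells stood apart in depth and in channel genes. In 102 control and 41 knockout cells, nuclear genes of the respiratory chain took at least 1.5% of UMIs, and their medians were 13182 and 13104 UMIs against 6065 and 6429 in the other cells. Potassium channel genes took 1.08% of their UMIs against 1.84% in the control and 1.19% against 1.81% in the knockout. Of the 32 members, 14 were at least 1.5-fold lower in these cells in both libraries and 2 at least 1.5-fold higher. Of all genes, 13.1% were lower and 19.4% higher by the same rule. *Kcnh7* stood at 3237 against 5902 CPM in the control and at 3532 against 5804 in the knockout, with ratios of 0.55 (0.53 to 0.57) and 0.61 (0.58 to 0.64). *Kcnd3* had the ratios 0.31 (0.19 to 0.46) and 0.29 (0.10 to 0.66), and *Kcnmb2* 0.34 (0.24 to 0.47) and 0.34 (0.18 to 0.58).

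The 2 members at least 1.5-fold higher in both libraries were *Kcnip2*, with 2.36 (2.01 to 2.75) and 1.83 (1.38 to 2.41), and *Kcna6*, with 1.67 (1.35 to 2.04) and 1.81 (1.29 to 2.52), which are also members with less CPM in cells than in droplets. *Kcnk2* was higher by less, with 1.16 (1.05 to 1.29) and 1.23 (1.06 to 1.42). Of the 32 members, 5 in the control and 10 in the knockout were above a ratio of 1. The 14 lower members had a median span of 309 kb and the other 18 of 73.4 kb. The Spearman correlation of span with the log2 ratio was -0.44 in the control and -0.25 in the knockout over the 32 genes, which share libraries and depth. The part of depth, span and intronic reads in this contrast was not tested. These cells made up between 7.14% and 12.7% of the cells on each side of the *Cck*, *Grik1* and *Chst8*/*Alkal2* splits. They made up 13.6% of knockout cells with an *Etv4* or *Etv5* UMI and 8.33% of those without, and 12.6% and 9.93% in the control. In them the knockout over control ratio of *Kcnip1* was 2.00 (1.65 to 2.41), and in the other cells 1.28 (1.19 to 1.39).

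**Figure D5:**
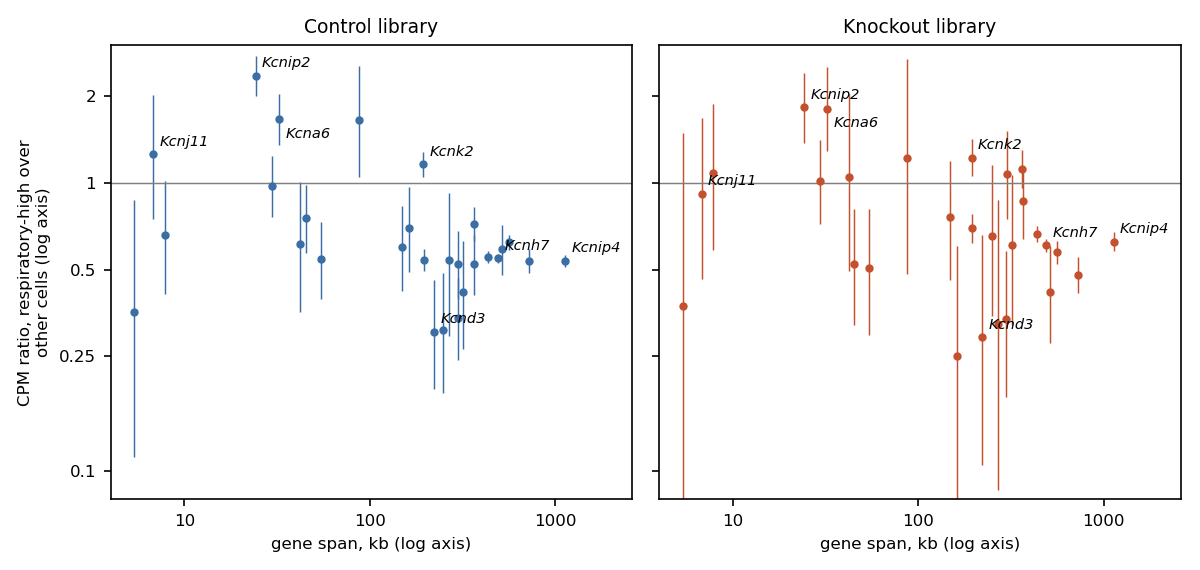
CPM ratio of cells in which respiratory chain genes took at least 1.5% of UMIs over the other cells (log axis), against the genomic span in kb of 28 of the 32 genes (log axis), with exact 95% counting intervals cut at the axis limits. Most genes lie below 1, and *Kcnip2* (2.36 and 1.83) and *Kcna6* (1.67 and 1.81) lie highest in both libraries.

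Partners of these channels and genes with the symbol prefixes of other channel families were compared between genotypes in the same way. A shared prefix does not make each gene a channel. None of the 19 partner genes past the minimum (0) and none of 28 genes of 48 starting with *Scn*, *Cacn* or *Hcn* (0) passed 1.5-fold, where 4.33% of all genes did, so that 0 is near the share of all genes. The median log2 ratio of the latter was 0.02, beside 0.00 for all genes, and they took 0.695% and 0.694% of UMIs. Among Kv4 partners, *Dpp10* was at 1.30 (1.18 to 1.44) and *Dpp6* at 0.85 (0.73 to 0.97), and among Kv2 partners *Amigo1* was at 1.42 (1.00 to 1.99) and *Vapa* at 0.78 (0.67 to 0.91). Of the genes that gather Kv1 channels on axons, *Cntnap2* stood at 11061 and 10472 CPM, *Adam23* was at 1.29 (1.17 to 1.41) and *Dlg2* at 0.81 (0.76 to 0.87). The receptors coupled to GIRK channels, *Gabbr1* and *Gabbr2*, were at 1.24 (1.12 to 1.36) and 1.19 (1.04 to 1.35). The G protein-gated pores went both ways. *Kcnj3* was at 0.70, and *Kcnj6* and *Kcnj9* were also lower in the knockout, while *Kcnj5*, with the most UMIs of them, was higher. The inward rectifier family as a whole was at 0.99 (0.90 to 1.09). The 5 sodium pump genes past the minimum lay between 1.00 and 1.11. Of the pacemaker channels, *Hcn2* was at 1.35 (1.11 to 1.65) and *Hcn3* at 1.49 (1.07 to 2.07).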

How the data were processed

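The authors deposited the raw UMI count of every gene in every barcode of both libraries (Chromium 3′ v3.1), with no cell calling. The matrices held 16336796 control and 6777071 knockout UMIs. Their header names Cell Ranger 4, the submitters' processing notes Cell Ranger 8.0.1 and mm39, and the methods another version and mm10, so the build is uncertain. Gene positions and lengths were matched by Ensembl identifier to GENCODE M21 on GRCm38 for all 96 members, and promoter sequences came from RefSeq (GRCm38.p6). Intron and strand handling are not given in the sources used here.

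Barcodes with at least 2000 UMIs and 5 *Reln* UMIs were kept, which left out 8 control and 16 knockout barcodes. No doublet caller was run, and an alternative left out the 1% of barcodes with the most UMIs. UMIs were summed per library or split and divided by the 6601724 control and 2765943 knockout UMIs outside mitochondrial (mt-) and ribosomal protein genes (Rpl, Rps, Mrp), or by the like sum of each split. Intervals are exact Poisson, Clopper-Pearson and conditional ratio intervals (Python 3.11.15, numpy 2.4.6, scipy 1.17.1). Ratios and their intervals were tested on simulated counts, drawn from the Poisson model that the intervals assume and without variation between cells. That test cannot tell whether the intervals hold where cells vary beyond counting error. A count of 0 allows up to 3 UMIs per library. The edgeR test needs replicates and was not used.

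Members, lists and splits were chosen with earlier results of these data known. The genes named were the 12 with the highest control CPM, those past 1.5-fold in a comparison, the 3 highest and 3 lowest by the interval bound nearer to 1 where fewer than 3 passed, and a fixed list of familiar members of each family. Others, such as *Kcna2* in the comparison of genotypes, *Kcnh2* and *Kcnh6*, were named after their values were seen. Respiratory genes were the 98 whose symbols begin with Atp5, Nduf, Sdh, Uqcr or Cox followed by 4 to 8. Alternatives concerned the barcode limits, the gene minimum, the fold, the scale, thinning, free RNA and sex. Those added after seeing the data were the split by *Etv4* and *Etv5*, leaving out shared barcodes, leaving out cells with markers of other cell types, and leaving out the top cell of each gene. A few genes enter the counts but are not reported here by name or plotted.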

Additional observations from a re-analysis of the deposited data

Results flagged for a closer look

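*Kcnmb2*, the inactivating BK beta subunit, was lower in *Cck*-positive than in negative cells of the control library, at a ratio of 0.621 (0.519 to 0.740). In the knockout library it was higher, at 1.43 (1.07 to 1.90), from 169 and 79 UMIs in positive cells of each library. The intervals lie on opposite sides of 1. The difference between the libraries was not tested, since each genotype is 1 library.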

How the results depend on the processing

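No paired analysis was possible because each genotype is 1 library, and no replicate could be left out. Between genotypes, 2 of 32 members passed 1.5-fold, where 4.33% of all genes did. The number was 5 of 40 with a minimum of 50 UMIs (7.24% of all genes) and 22 of 60 with no minimum (25.2%). At a fold of 2 it was 0 of 32 (0.718%), and in female cells 4 of 24 (5.13%). In knockout cells with an *Etv4* or *Etv5* UMI, set against the whole control library, it was 6 of 31 (9.06%), and in those without 1 of 31 (5.19%). For *Cck* the 2 members became 4 of 50 with no minimum (6.93% of all genes) and 0 of 32 at a fold of 2 (0.624%). For *Grik1* the 3 became 5 of 49 (6.56%) and 0 of 32 (0.426%). *Kcnrg* was lost for *Grik1* in barcodes of at least 4000 UMIs and without cells of high respiratory share. After thinning, 4 of 25 members passed for *Grik1* (6.64% of all genes). *Kcnip1* was the 1 of the 3 that was kept, with *Kcnd2*, *Kcnh1* and *Kcnip4* in place of *Kcna6* and *Kcnrg*. For *Chst8* or *Alkal2* the 0 became 1 of 31 in barcodes of at least 4000 UMIs (*Kcnmb2*), where 2.64% of all genes passed. *Kcnab1* alone passed with limits at 3 median absolute deviations (2.85% of all genes) and without the 1% of barcodes with the most UMIs (2.99%). It also passed alone without cells of high respiratory share (2.79%) and with a mean over cells (2.87%). After thinning the number was 1 of 25 (*Kcnip2*, 4.28%), and with no minimum 3 of 50 (7.45%). The share of UMIs was 1.63% in the control and 1.61% in the knockout on the scale of all UMIs, 1.74% in both with limits at 3 median absolute deviations, and 1.84% and 1.81% without cells of high respiratory share. In the control it was 1.73% with at least 4000 UMIs and 1.74% with free RNA subtracted. The ratio of *Kcnh7* turned to 1.00 with the limits at 3 median absolute deviations, 1.02 in female cells and 1.05 in knockout cells with an *Etv4* or *Etv5* UMI. Thinning moved the control ratios of *Kcnip1* to 1.53 for *Cck* and 0.13 for *Grik1*, that of *Kcna6* to 0.26 for *Grik1*, and the control and knockout ratios of *Kcnd2* to 0.28 and 0.20 for *Cck*. Without cells of high respiratory share, the knockout ratios for *Grik1* were 0.32 for *Kcna6* and 0.43 for *Kcnip1*, which was at 0.47 both with limits at 3 median absolute deviations and without the 1% of barcodes with the most UMIs. Of the values of single genes under the alternatives, 201 moved by less than their interval, 25 by more and 3 turned direction. Leaving out shared barcodes could move no value, since no barcode was shared. The cause of the moves was not tested. Depth limits the genes under 100 UMIs, whose intervals span several-fold.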
